A study of Schizosaccharomyces pombe with 2 samples.

Results

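The 30 snoRNA rows numbered SPSNORNA.01 to SPSNORNA.31, without SPSNORNA.20 (the U17 homologue snR30), were examined here, out of 12684 rows of a count table of the fission yeast Schizosaccharomyces pombe. The rule that defines the members uses the identifiers only and no measured value. All 30 matched the RefSeq annotation by identifier and had the same start and end there (assembly ASM294v3), with lengths of 47 to 112 nt and a median of 84 nt. They were grouped by the coordinates of the table: 10 lay inside a coding gene on the same strand, 16 lay inside or within 500 nt of another snoRNA or non-coding row on the same strand, and 4 were alone.

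The RNA came from vegetative haploid h- cells with the genotype leu1-32, pat1-L95G::kanR, which the labels call wild type, grown in minimal medium (EMM) at 30 °C. pat1-L95G is an altered form of the gene of the Pat1 kinase, the inhibitor of meiotic entry. Total RNA was depleted of rRNA, polyadenylated in vitro and read directly on nanopores from the 3′ end, in 1 library for each of 2 biological replicates. There was a single group and hence no contrast between conditions, and every test below compares the library of replicate 1 with that of replicate 2.

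Box C/D snoRNAs are short nucleolar RNAs that guide 2′-O-methylation of rRNA. The C box near the 5′ end and the D box near the 3′ end, often with internal copies called C′ and D′, are bound by the core proteins Snu13, Nop56, Nop58 and the methyltransferase fibrillarin. An antisense element just upstream of a D or D′ box pairs with the target RNA, and the target nucleotide opposite the fifth position upstream of that box receives the methyl group. In yeasts, such snoRNAs are transcribed alone, in tandem arrays on 1 precursor, or from introns of coding genes, and are then trimmed by nucleases. U14 is an exception in function, as it is also required for cleavage of the 18S rRNA precursor.

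The label of the group was first checked against the reference sequences (RefSeq, ASM294v3, sense strand). The C box was searched as TGATGA in the first of 3 equal parts of each row and the D box as CTGA in the last 25 nt, on the sense strand only. Of the 30 members, 18 had the C box, 27 the D box and 17 both. With 1 mismatch allowed in the C box, 27 had both. Among 194 other rows of the same length range, 1 had both boxes with the exact C box (0.515%). Among the first 84 nt of 5113 protein-coding rows 1 did (0.0196%). With 1 mismatch allowed, 1 of the 194 (0.515%) and 18 of the 5113 (0.352%) had both. Most of the 194 were nuclear tRNA rows (171 rows), so the shares of the 194 are largely those of tRNAs. None of the members (0 of 30) ended in the ACA trinucleotide 3 nt from the 3′ end that marks the other large class, box H/ACA. In 21 members the best C box match began at nt 6, close to the annotated 5′ end. The following members show the range, with the best C box match and the D box in capitals. snoR58 and sno52 carried both motifs, snoZ7 and snR70 had a single other base at the start of the C box, and snoR02, snoR54b and snoU24 were the 3 members without a CTGA in the last 25 nt.
snoR58: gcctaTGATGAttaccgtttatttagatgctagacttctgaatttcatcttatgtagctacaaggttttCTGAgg
sno52: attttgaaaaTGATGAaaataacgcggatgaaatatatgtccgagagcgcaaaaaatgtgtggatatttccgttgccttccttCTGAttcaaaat
snoZ7: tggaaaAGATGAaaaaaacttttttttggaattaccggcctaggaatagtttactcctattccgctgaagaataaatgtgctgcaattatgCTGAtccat
snR70: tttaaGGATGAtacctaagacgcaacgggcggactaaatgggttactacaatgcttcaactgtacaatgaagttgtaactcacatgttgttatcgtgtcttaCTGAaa
snoR02: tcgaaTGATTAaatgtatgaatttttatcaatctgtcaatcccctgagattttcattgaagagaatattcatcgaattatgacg
snoR54b: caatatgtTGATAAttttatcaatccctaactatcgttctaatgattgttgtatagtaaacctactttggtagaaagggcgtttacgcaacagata
snoU24: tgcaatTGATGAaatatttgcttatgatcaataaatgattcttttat

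snoR58 lies on chromosome I from 5366223 to 5366297, snoR02 from 2627988 to 2628071 and sno52 from 339548 to 339642, all on the minus strand. snoZ7 lies on the plus strand of chromosome I from 526937 to 527036 and snR70 from 1200394 to 1200501. snoR54b, on the plus strand of chromosome I from 4238306 to 4238401, held no CTGA at all. snoU24 was annotated as only 47 nt, on the minus strand of chromosome I from 5369640 to 5369686, and its row held no CTGA. No member aligned elsewhere in the nuclear genome over 80% of its length at 90% identity or more (0 hits), so the counts are not split between near copies.

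Antisense elements were searched as uninterrupted Watson-Crick complements of at least 10 nt to the 25S, 18S or 5.8S rRNA in the 20 nt upstream of a CTGA. Such elements were found in 15 of the 30 members, 19 elements in all, of which 15 matched 25S and 4 matched 18S rRNA. In 12 of the 19, exactly 1 nt separated the element from the CTGA, and 8 of the 19 stood before the D box and not an internal CTGA. Counted over CTGA motifs, 19 of 44 in the members (43.2%) followed a complement, against 5.82% of 39260 in protein-coding rows. For complements of at least 12 nt the shares were 27.3% and 0.349%. A match of this kind describes the sequence and is no proof of a modified site. The elements of 14 nt or more and those of a related pair are shown with the complement in capitals. Positions in rRNA are counted from 1 at the start of the annotated rRNA row.
snR41: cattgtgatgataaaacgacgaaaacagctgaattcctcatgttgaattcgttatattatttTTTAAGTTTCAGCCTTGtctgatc
snR51b: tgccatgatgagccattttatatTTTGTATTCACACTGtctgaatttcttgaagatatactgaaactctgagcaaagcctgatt
snoR02: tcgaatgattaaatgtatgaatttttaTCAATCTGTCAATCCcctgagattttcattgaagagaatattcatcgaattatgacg
snoZ15: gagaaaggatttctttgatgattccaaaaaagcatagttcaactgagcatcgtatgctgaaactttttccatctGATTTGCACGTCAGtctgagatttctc
snoR39b: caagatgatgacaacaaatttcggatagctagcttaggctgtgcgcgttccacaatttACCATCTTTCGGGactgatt
snoR39a: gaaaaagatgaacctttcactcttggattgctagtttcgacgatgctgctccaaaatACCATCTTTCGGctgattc

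The 17 nt element of snR41, which precedes the D box, was complementary to 18S rRNA from 1139 to 1155, with the G at position 1142 opposite the fifth nucleotide upstream of the D box. The 15 nt element of snR51b lay before an internal CTGA and matched 25S rRNA from 2821 to 2835. The 15 nt element of snoR02, which has no D box motif, also lay before an internal CTGA and matched 18S rRNA from 1245 to 1259. snoZ15 had 2 elements, 14 nt before the D box matching 25S rRNA from 905 to 918 and 10 nt before an internal CTGA matching 846 to 855. snoR39b and snoR39a carried the same core element, against 25S rRNA 834 to 846 and 835 to 846. Their D boxes stood 1 nt and 0 nt after it, so that the nucleotide opposite the fifth position was the G at 837 for snoR39b and the A at 839 for snoR39a. Over the whole rows these 2 were 66.3% identical in a global alignment. snR41 and snR51b lie on the plus strand of chromosome I, from 1200168 to 1200253 and from 1200646 to 1200729. snoZ15 and snoR39b lie on the minus strand of chromosome II, from 1756122 to 1756222 and from 1791743 to 1791820, and snoR39a lies on the plus strand of chromosome I from 1712996 to 1713071.

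Some members without an element before a CTGA held a complement elsewhere in the row. D′ boxes often depart from CTGA, but whether these complements stand before a D′ box was not tested. In a search of the whole row that was chosen after the data were seen, 20 of the 30 members held a complement of at least 12 nt to rRNA. Of 5113 protein-coding rows, 3.09% held one in their first 84 nt, the only part searched. Members were searched over their whole length, up to 112 nt. The examples below, with the complement in capitals, include U14 and 2 pairs of members that share a target stretch.
snoU14: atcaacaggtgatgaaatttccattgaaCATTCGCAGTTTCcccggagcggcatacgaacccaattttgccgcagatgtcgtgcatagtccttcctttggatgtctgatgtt
snoU24b: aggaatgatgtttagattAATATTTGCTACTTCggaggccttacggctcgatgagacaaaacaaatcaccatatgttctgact
snoU24: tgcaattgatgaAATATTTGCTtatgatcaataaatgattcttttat
snoR69: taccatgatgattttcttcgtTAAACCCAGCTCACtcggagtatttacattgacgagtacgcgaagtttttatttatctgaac
snoR69b: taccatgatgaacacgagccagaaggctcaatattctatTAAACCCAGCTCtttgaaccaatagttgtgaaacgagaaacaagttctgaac

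U14 (snoU14, chromosome II from 1308634 to 1308745, plus strand) matched 18S rRNA from 84 to 96 over 13 nt. snoU24b (chromosome I from 2440336 to 2440418, plus strand) matched 25S rRNA from 1478 to 1492, and the 47 nt row of snoU24 carried 10 nt of the same element, against 1483 to 1492. snoR69 (chromosome I from 5387559 to 5387641, plus strand) and snoR69b (chromosome I from 4154912 to 4155002, plus strand) shared a run of 13 nt and matched 25S rRNA from 3038 to 3051 and from 3040 to 3051. snR70 and snoZ30 had no complement to rRNA of 10 nt or more. In a search of the spliceosomal RNAs, also chosen after the data were seen, snoZ30 had 10 nt directly before the D box complementary to U6 from 37 to 46, with the A at 41 opposite the fifth position.

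Total counts were 12871729 in replicate 1 and 12579850 in replicate 2, spread over 9515 and 9480 rows with reads. A count of 0 allows up to 3 counts, or 0.233 CPM (counts scaled to a library total of 1000000) in replicate 1 and 0.238 CPM in replicate 2, for counting error only. As a check of the h- mating type, the 4 h- genes (mfm1, mfm2, mfm3 and mam2) summed to 8241 reads in replicate 1 and 8223 in replicate 2. The h+ genes map2 and map3 had 2 and 9 reads in replicate 1 and 0 and 14 in replicate 2.

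Reads were found in both libraries for 29 of the 30 members, and snoR54b was at 0 in both. Together the members held 27994 reads in replicate 1 and 24288 in replicate 2, which is 0.217% and 0.193% of all counts. U14 alone made up 69.9% of these reads in replicate 1 and 69.1% in replicate 2. The other 29 summed to 8432 and 7502 reads. Median counts per member were 124 in replicate 1 and 109.5 in replicate 2. The median over members of the mean CPM was 8.97. The medians in the single libraries were 9.63 CPM in replicate 1 and 8.70 CPM in replicate 2 (SD of these 2 medians 0.657). The median coding gene (4921 genes at 10 reads or more in sum) had 10.4 CPM, slightly above the median member. Per 1000 nt of annotated length, the median member had 112 CPM and the median coding gene 5.38 CPM. The order of the 2 medians thus depended on the division by length. Reads start at the 3′ end of an RNA, so a count need not grow with its length. CPM is therefore nearer to a count of RNAs, and values per 1000 nt raise short rows. The member median includes the row at 0 reads, whereas the coding median leaves out rows under 10 reads. How well RNAs of this size were recovered was not measured.

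**Figure D1:**
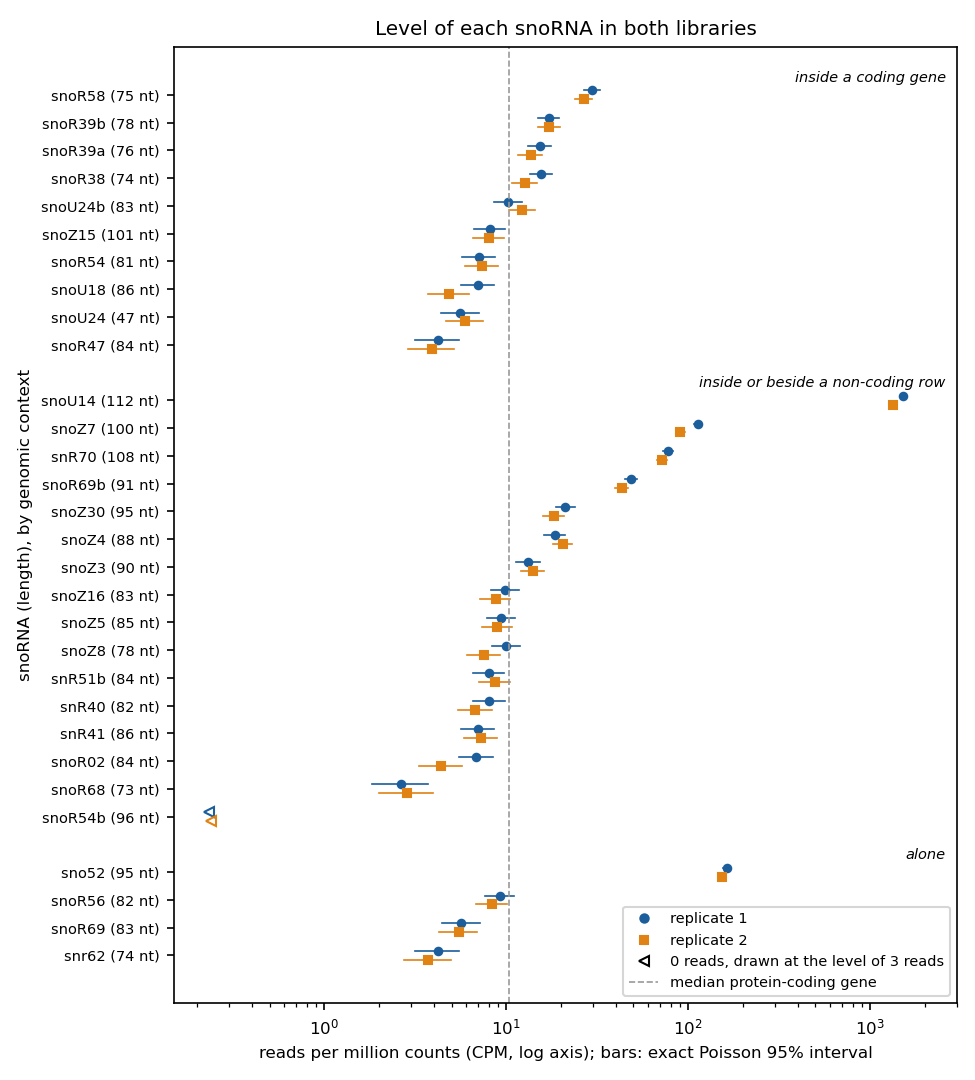
Level of each of the 30 snoRNAs in CPM on a log axis, in replicate 1 (circles) and replicate 2 (squares), grouped by genomic context. Bars are exact Poisson 95% intervals, and the dashed line is the median of 4921 protein-coding genes (10.4 CPM, not divided by length). U14 stands highest with 19562 and 16786 reads, most other members lie between 2.75 and 28.2 CPM, and snoR54b is at 0 reads.

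A few members carried most of the reads that were left besides U14. sno52 had 2095 reads in replicate 1 and 1925 in replicate 2, snoZ7 had 1452 and 1139, and snR70 had 993 and 904. snoR69b had 626 and 542 reads, and snoR58 had 381 and 336. The order of these members was the same in both libraries, and the exact Poisson intervals of neighbours in the order did not overlap within a library. When CPM was divided by length, the order at the top was again U14, sno52, snoZ7, snR70, snoR69b and snoR58, with 12742, 1662, 1017, 689.8, 504 and 375 CPM per 1000 nt.

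At the low end, snoR68 had 34 reads in replicate 1 and 36 in replicate 2. snoR47 had 54 and 49 reads, and snr62 had 54 and 47. The Poisson intervals of these 3 overlapped within each library. snoR68 was the lowest of the 3 in both libraries, an order that was not tested. snoR47 and snr62 could not be ranked at this depth. snoR54b, with its 0 reads in both libraries, was also 1 of the 2 members with no CTGA anywhere in the row, the other being the 47 nt row of snoU24. Its count speaks of the annotated interval only.

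The level went with the annotated length (the plot of level against length). The 22 members of up to 90 nt had 34 to 381 reads in replicate 1 and 36 to 336 in replicate 2, and 0 of them had 500 reads in both. Of the 8 members over 90 nt, 5 had at least 500 reads in both libraries (U14, sno52, snoZ7, snR70 and snoR69b). The other 3 were snoZ30 of 95 nt with 272 and 230 reads, snoZ15 of 101 nt with 105 and 101 reads, and snoR54b of 96 nt with 0. Over all 30 members, Spearman's rho of mean CPM and length was 0.389 and Pearson's r on the log2(CPM + 1) scale was 0.531. Without snoR54b these values were 0.493 and 0.653 (n = 29). Within the 21 members of 70 to 90 nt, rho was 0.00456. With CPM divided by length, rho over the 30 members was 0.281. These values are descriptions across members that share their libraries, and the limit of 90 nt was chosen with the values known.

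**Figure D2:**
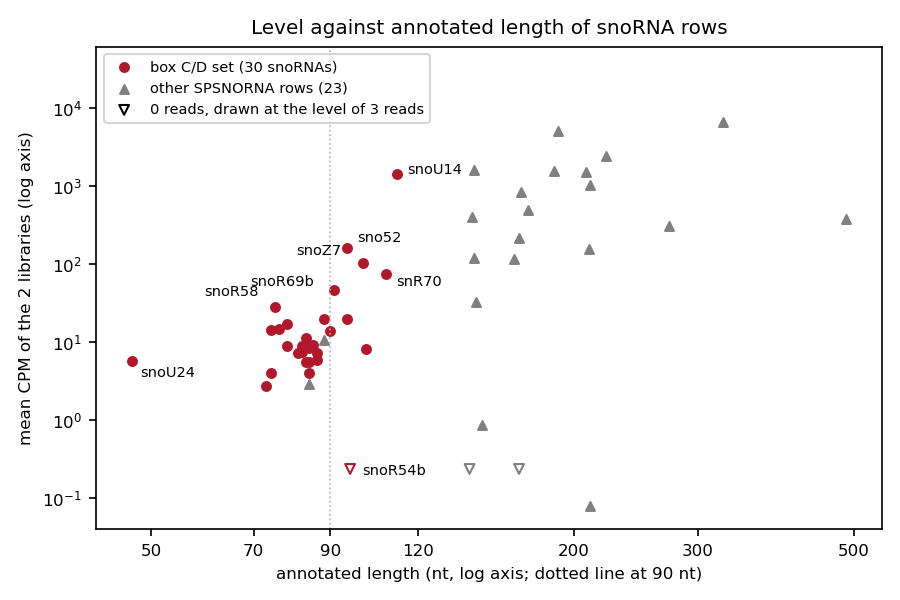
Mean CPM of the 2 libraries against annotated length, both on log axes, for the 30 members (circles) and the 23 other SPSNORNA rows (triangles). Open symbols are rows at 0 reads, drawn at the level of 3 reads. All members above 30 CPM are longer than 90 nt, and 2 other rows of 84 and 88 nt lie among the short members.

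The other SPSNORNA rows were nearly all longer than the members. The 21 of them over 110 nt had medians of 5189 reads in replicate 1 and 4348 in replicate 2, with a median of 1294 CPM per 1000 nt, against 107 CPM per 1000 nt for the 22 members of up to 90 nt. Not all of them were abundant, as 16 of the 21 had 500 reads or more in both libraries and snR5, snR10, snR96 and snR97 had between 0 and 12. The only 2 other rows of up to 90 nt, snR88 and snr79, had 42 and 143 reads in replicate 1 and 32 and 123 in replicate 2, inside the range of the short members. Transfer RNA rows, of 71 to 102 nt, had a median of 4 reads in each library. Near copies were searched for the members only, and whether tRNA counts are split between gene copies was not tested. Length and class of these rows cannot be told apart, and the part of size-dependent recovery in the result was not tested.

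The 10 members inside a coding gene all lay in introns. Their hosts were rpl701 (ribosomal protein L7), rlp7 (an L7-like ribosome biogenesis factor), cpc2 (the RACK1 homologue of the ribosome), SPAC29A4.02c (translation elongation factor EF-1 gamma), ade4 and gua1 (enzymes of purine synthesis), spt20 (SAGA complex), pfd1 (prefoldin), ero11 (ER oxidoreductin) and fta3 (a kinetochore protein). In 7 of the 10 the host had a single intron, and in cpc2, spt20 and pfd1 the snoRNA lay in the last of 2, 4 and 3 introns. The introns were 157 to 441 nt long. The snoRNA ended 49 to 121 nt before the 3′ splice site in 9 of them, and 258 nt before it in ade4.

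Intronic members had a median of 9.67 CPM, from 4.05 (snoR47) to 28.2 (snoR58), and a median of 129 CPM per 1000 nt. The host levels covered a far wider range than those of the snoRNAs inside them. Hosts spanned 21.8 to 749 CPM, a 34.4-fold range, and their snoRNAs a 6.96-fold range. Across the 10 pairs, Spearman's rho of host and member CPM was 0.648, and 0.6 with the reads overlapping the member taken out of the host. The pairs share libraries, and in the first value also reads. With both divided by length, rho was 0.564.

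The related pair snoR39b and snoR39a is an example. rpl701 held 9679 reads in replicate 1 and 9374 in replicate 2, and rlp7 held 815 and 894. Yet snoR39b in rpl701 had 221 and 217 reads, and snoR39a in rlp7 had 197 and 171. The exact Poisson intervals of the 2 snoRNAs overlapped in each library (14.98 to 19.6 CPM for snoR39b and 13.2 to 17.6 CPM for snoR39a in replicate 1), while rpl701 had 749 CPM and rlp7 had 67.2 CPM. The pair snoU24b and snoU24 were hosted by cpc2, with 5916 and 5845 reads, and spt20, with 535 and 495. snoU24b had 132 and 154 reads and snoU24, from the shorter annotation, had 72 and 75.

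Reads overlapping the snoRNA were a minor share of the reads of every coding host. A read that overlaps several rows of its strand was counted in each, so host reads include those of the snoRNA. The share was smallest in rpl701, at 2.28% in replicate 1 and 2.31% in replicate 2, and largest in pfd1, where snoZ15 took 37.8% and 34.4% (105 and 101 of 278 and 294 reads). In ade4, snoR58 took 31.5% in replicate 1 and 27.5% in replicate 2. The median share was 15.2%. None of the 10 shares differed between the libraries by Fisher's exact test (two-sided, Benjamini-Hochberg over the 67 nested pairs of the table with reads, of which 4.48% were called; 0 adjusted and 4 unadjusted p under 0.05 among the 10), and the adjusted p of the 10 hosts in the exact binomial test lay between 0.212 and 0.915. These counts do not separate mature snoRNA from excised intron or unspliced pre-mRNA.

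**Figure D3:**
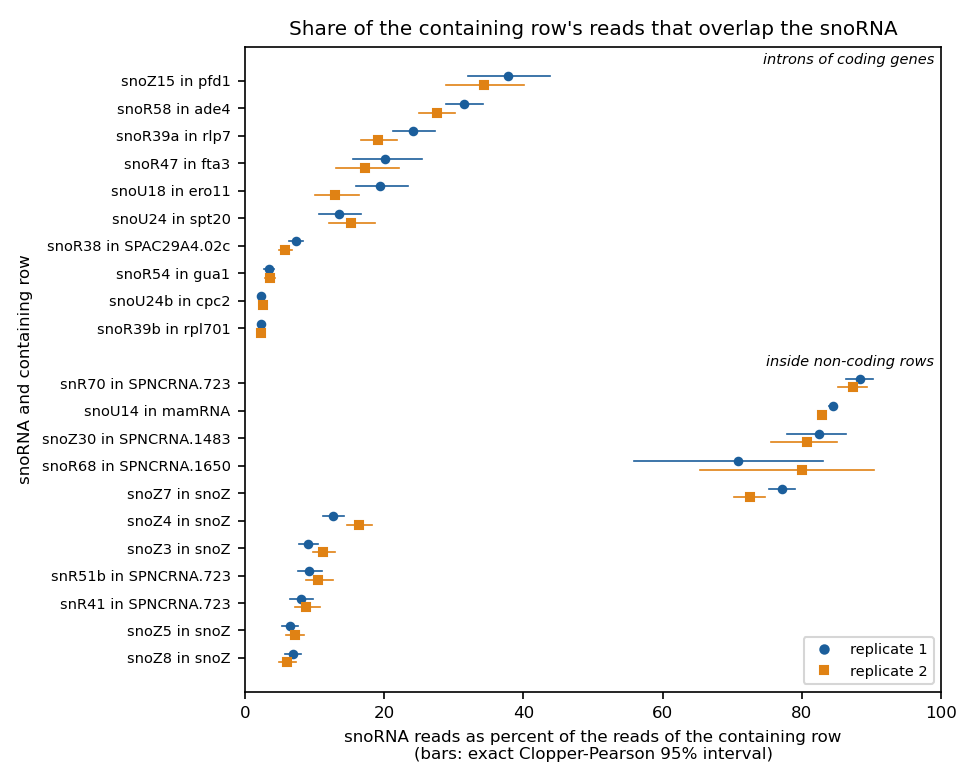
Reads overlapping each snoRNA as a percent of the reads of the row that contains it, in replicate 1 (circles) and replicate 2 (squares), for 10 snoRNAs in coding genes and 11 in non-coding rows. Bars are exact Clopper-Pearson 95% intervals for counting error. Shares in coding genes end at 37.8%, whereas 5 snoRNAs in non-coding rows took 70.8% or more in each library.

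Of the 16 members in a non-coding context, 11 lay inside a longer non-coding row. Of these, 8 formed the 2 tandem arrays. The primary transcript row snoZ (SPNCRNA.659, 1901 nt) held snoZ8, snoZ7, snoZ5, snoZ4 and snoZ3, in this order from the 5′ end, and SPNCRNA.723 (868 nt) held snR41, snR70 and snR51b. Gaps of 111 to 154 nt separated neighbours. In both arrays the only member over 90 nt took most of the reads, and it stood second from the 5′ end.

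In snoZ, snoZ7 (100 nt) had 1452 reads in replicate 1 and 1139 in replicate 2. snoZ4 had 238 and 257 reads, and snoZ3 had 170 and 176. snoZ8 had 129 and 95 reads, and snoZ5 had 121 and 112. The 4 other members, of 78 to 90 nt, thus stayed at 257 reads or below in each library. In SPNCRNA.723, snR70 (108 nt) had 993 reads in replicate 1 and 904 in replicate 2, snR41 (86 nt) had 90 and 91, and snR51b (84 nt) had 103 and 109. The dominant and the minor members of an array lie on 1 annotated precursor, and the Poisson intervals of the dominant member did not overlap those of the others in either library.

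**Figure D4:**
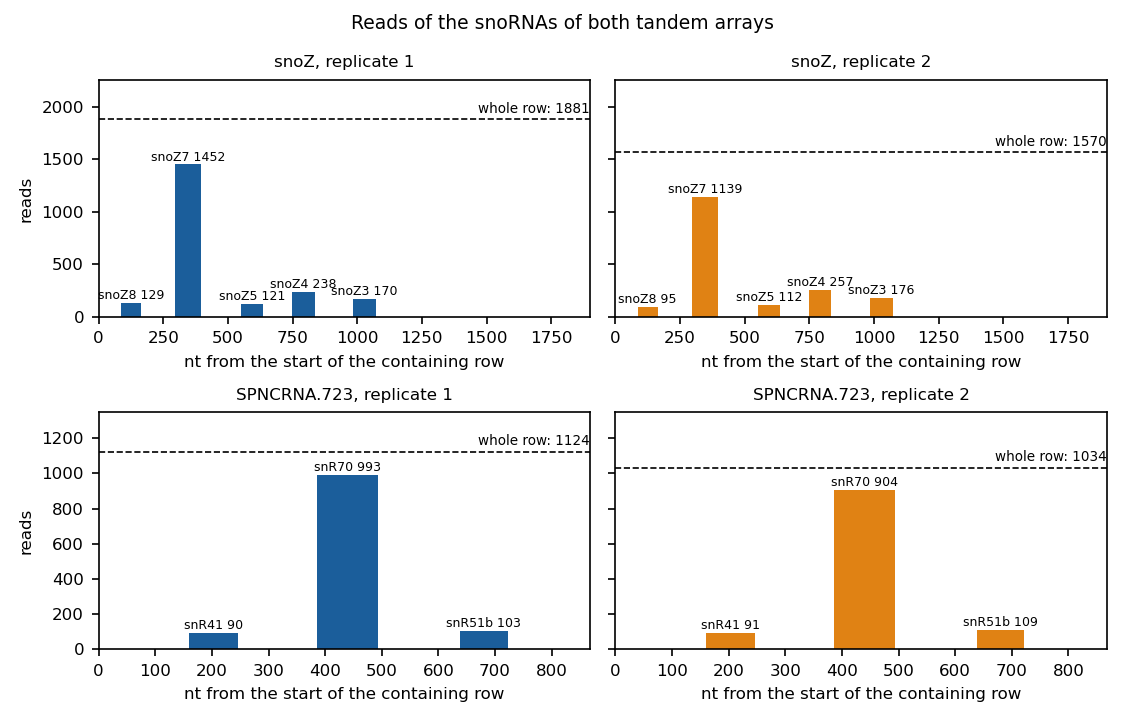
Reads of each snoRNA along the 2 tandem arrays, against the distance in nt from the start of the containing row, with replicate 1 on the left and replicate 2 on the right. Bars are as wide as the snoRNA, and the dashed line is the count of the whole row. snoZ7 reached 1452 and 1139 reads and snR70 reached 993 and 904, and every other member stayed at 257 or below.

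Some reads covered more than 1 member of an array. In snoZ the counts of the 5 members summed to 2110 reads in replicate 1 and 1779 in replicate 2, which is 229 and 209 more than the counts of the whole row, 1881 and 1570. At least 58 reads in replicate 1 and 53 in replicate 2 must then have overlapped several members. In SPNCRNA.723 the excess was 62 and 70 reads, and at least 31 and 35 reads must have done so. This follows from the counts where each read is counted once per row, and gives a lower limit on reads that span neighbouring snoRNAs.

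The remaining 3 members inside a non-coding row were each the only snoRNA row annotated in it, and took most of its reads. U14 took 84.4% of the reads of the 1124 nt row SPNCRNA.1715 in replicate 1 and 82.8% in replicate 2. This row is called mamRNA here but spans U14 too. The study places mamRNA upstream of U14, on a precursor that holds both. It proposes that mature U14 may also come from a promoter of its own. The intron of mamRNA encodes the box C/D snoRNA snR107 described by the study. snR107 has no row in the table, so reads of it fall in the part outside U14. snoZ30 took 82.4% and 80.7% of SPNCRNA.1483 (272 and 230 of 330 and 285 reads). snoR68 took 70.8% and 80% of SPNCRNA.1650, from only 34 and 36 of 48 and 45 reads, with wide intervals that overlapped (55.9 to 83.0% and 65.4 to 90.4%). snoR68 is 73 nt long, so a high share of the containing row was not limited to the long members.

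The other 5 members of this context lay beside a non-coding row, with a median of 90.5 CPM per 1000 nt, against 151 for the 11 inside one. snR40 (104 and 85 reads) lay 19 nt from SPNCRNA.2172, which had 172 and 141 reads over 2191 nt. snoR69b (626 and 542 reads) lay 217 nt from SPNCRNA.242, which had 3941 and 3639. snoZ16 (127 and 110 reads) and snoR02 (88 and 55 reads) had neighbours of at most 9 reads per library. snoR54b had 0 reads, as did SPNCRNA.3895, 71 nt away.

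The 4 members that were alone were sno52, snoR56 (119 and 105 reads), snoR69 (73 and 69) and snr62 (54 and 47). sno52 was the second most abundant of all 30, while the other 3 lay in the lower range. snoR69 was far below its relative snoR69b in both libraries, and the 2 match the same stretch of 25S rRNA but lie in different contexts.

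Across contexts the medians were close. Over all lengths they were 9.67 CPM inside coding genes (n = 10), 9.23 in the non-coding context (n = 16) and 7.19 alone (n = 4), and per 1000 nt they were 129, 112 and 87.2 CPM. The ranges overlapped throughout, and all 5 members with 500 reads or more in both libraries lay outside coding genes. These 5 were also all over 90 nt, and snoZ15 (101 nt) was the only member of that length inside a coding gene. Context and length cannot be told apart here. A comparison among members of 70 to 90 nt was chosen after the data were seen. Medians there were 12.7 CPM in coding genes (n = 8), 8.56 in the non-coding context (n = 10) and 5.58 alone (n = 3). Per 1000 nt they were 163, 103 and 67.2 CPM. No test was made, as members are not replicates of a context.

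On the opposite strand, 8 rows overlapped a member and 6 of them held it whole. In 7 of the 8 the antisense row had fewer reads than the member in both libraries, as for taf9, with 236 and 254 reads against 2095 and 1925 of sno52 inside it. A row that holds a member whole would have at least as many reads as the member if strand were ignored, so the counting took the strand into account. The exception was alg3, with 98 and 102 reads against 88 and 55 of snoR02.

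The 2 libraries were compared by the exact binomial test (two-sided) on all 6752 rows that had at least 10 reads in sum. Of the 29 members tested, 2 were called at an adjusted p under 0.05 (Benjamini-Hochberg), where 4.19% of all rows tested were called. Both were higher in replicate 1 (2.18% of all rows). snoZ7 had a log2 ratio of replicate 1 over replicate 2 of 0.32 (exact binomial test, adjusted p = 1.69e-06) and U14 had 0.19 (adjusted p = 6.24e-33). Both ratios were below 1.5-fold. An unadjusted p under 0.05 was found for 6 members and for 13.5% of all rows. Against this background, 2 calls are no result about the members as a group.

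**Figure D5:**
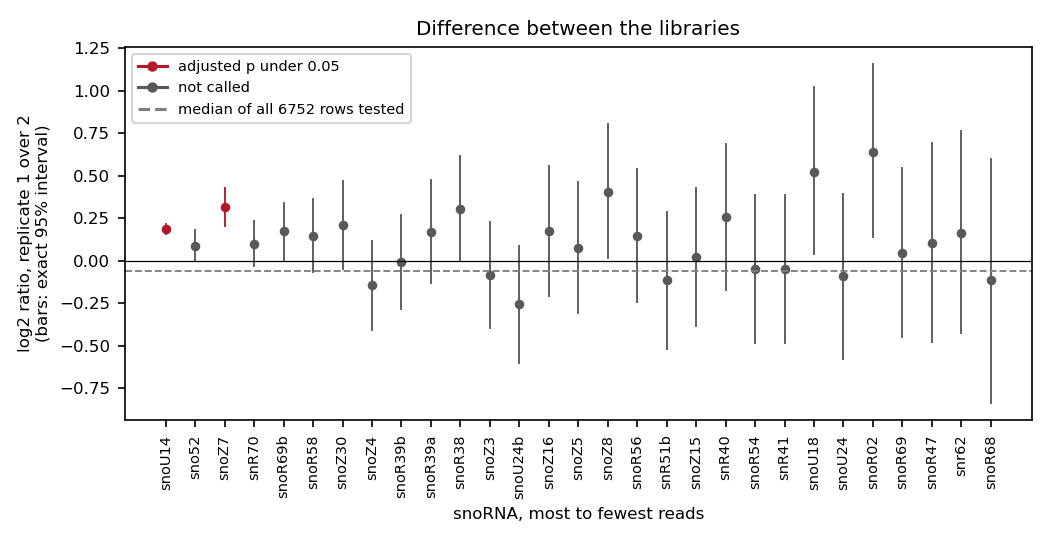
Log2 ratio of replicate 1 over replicate 2 for the 29 snoRNAs with reads, from most to fewest reads. Bars are exact 95% intervals from the counts, the dashed line is the median of all rows tested (-0.06), and red marks an adjusted p under 0.05. The 2 called snoRNAs, U14 and snoZ7, lie above 0, and the intervals widen to the right as counts fall.

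The ratios of the other members ranged from -0.25 (snoU24b, 132 and 154 reads) to 0.64 (snoR02, 88 and 55 reads, adjusted p = 0.144 in the exact binomial test). Of the 29, 20 were above 0 and 9 below, with a median of 0.11, against -0.06 over all rows tested. The count above 0 depended on the total used. With rRNA rows left out of the library totals, 16 of 29 were above 0 and the median was 0.014, against -0.15 over all rows. With TMM factors or DESeq2 size factors, 23 were above 0 and sno52 was called as well, also higher in replicate 1. Every other SPSNORNA row with more than 1 read in a library had more reads in replicate 1 too. For example, snR30 had 95414 and 71283 reads and snR33 had 442 and 373, where the library totals were 12871729 and 12579850. Higher counts in replicate 1 were thus not particular to the members.

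Of the 21 shares in a containing row, 3 differed between the libraries, and these were the 3 called among all 67 nested pairs tested (4.48%). Both calls within snoZ were narrow. snoZ7 took 77.2% of the row's reads in replicate 1 and 72.5% in replicate 2 (Fisher's exact test, adjusted p = 0.0471), and snoZ4 took 12.7% and 16.4% (adjusted p = 0.0471). The shares are parts of 1 total and are not independent of each other. The share of U14 in the row SPNCRNA.1715, which spans mamRNA and U14, also differed (Fisher's exact test, adjusted p = 0.000471).

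Genes of the box C/D machinery were listed beside the snoRNAs. The core proteins were represented by snu13 with 214 ± 10.4 CPM, fib1 (fibrillarin) with 142 ± 15.8, nop56 with 75.9 ± 5.62 and nop58 with 73.2 ± 5.69 (SD, n = 2). Of the processing factors, the 5′ exonuclease gene dhp1 had 22.7 ± 2.42 CPM, the RNase III gene pac1 19.1 ± 1.199, the TRAMP polymerase gene cid14 10.1 ± 1.22, the exosome gene rrp6 5 ± 1.36 and the debranching enzyme gene dbr1 4.48 ± 0.406. Of these 9 genes, 0 were called higher in replicate 1 and 1, fib1, was called higher in replicate 2 (1678 and 1921 reads, log2 ratio -0.23, exact binomial test, adjusted p = 0.000109), against 2.01% of all rows. All 9 log2 ratios were below 0, with a median of -0.18, where the median over all rows tested was itself below 0 (-0.06). The 9 ratios stayed below 0 under the other scalings tried. With rRNA rows left out of the totals, 4 of the 9 were called higher in replicate 2 (snu13, nop56, nop58 and fib1), and the share of all rows called was then 8.35%.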

How the data were processed

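Total RNA of 2 biological replicates of 1 group was depleted of rRNA, polyadenylated in vitro and sequenced as native RNA on nanopores. The authors called bases with dorado (super accuracy) and aligned reads with minimap2 (splice preset), as their methods state. The sources used here name neither the counting tool nor the genome build. The authors deposited whole-number counts of reads per annotated row, not normalized, which were handled here by the rule for estimated counts, under which rounding changed no value. Column names were shifted by 1 cell against the data, and columns were aligned by content. A read that overlaps several rows was counted in each: in all 67 nested pairs with reads the outer row held at least as many reads.

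The rule for the members uses identifiers only, but it and the lists were set with earlier results of these data known. All 30 members, every row containing or next to one and a list of 9 pathway genes are named. CPM was computed over all rows. The libraries were compared by an exact binomial test given the library totals (at least 10 reads in sum, Benjamini-Hochberg), log2 ratios with a pseudocount of 0.5, nested shares by exact intervals and Fisher's exact test (Python 3.11.15, scipy 1.17.1, tested on simulated data). With 2 libraries of cultures that the labels call biological replicates, p-values measure the difference of these libraries only, and all intervals cover counting error only. TMM factors came from edgeR 4.0.16 and size factors from DESeq2 1.42.0, over rows with at least 10 reads. Sequences and introns came from RefSeq ASM294v3 and were aligned with Biopython 1.88. Other totals, minimums, tests, distances and motif limits were tried.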

Additional observations from a re-analysis of the deposited data

How the results depend on the processing

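No paired analysis was possible because only 1 group of samples exists. The counts of called rows and the ratios between the libraries need both and have no value with either replicate left out.

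The count of 2 members differing between the libraries was 2 or 3 under the other scalings, minimums and the chi-square test, and 0 with at least 1.5-fold required, by construction. The median member log2 ratio of 0.11 became 0.17 with TMM factors, 0.16 with DESeq2 size factors and 0.014 with a total without rRNA, as these shift all rows by 0.06, 0.06 and -0.09. With that last total, nop56 (log2 ratio -0.24), nop58 (-0.25) and snu13 (-0.19) were called higher in replicate 2 as well, while the rows called over the whole table went to 564 (8.35%), against 283 (4.19%). The median member level of 8.97 CPM was 23.02 CPM over rows other than rRNA and 34.1 CPM over protein-coding rows, by construction, and lay between 8.70 and 9.63 CPM in the single libraries.

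Spearman's rho of level and length was 0.392 and 0.412 in the single libraries, 0.300 over members with both boxes, 0.676 over members outside coding genes, 0.281 with CPM divided by length, and, in alternatives chosen after seeing the data, 0.493 without snoR54b, 0.436 without snoR54b and U14, and 0.00456 over members of 70 to 90 nt. At that length, also chosen after seeing the data, the median level was 12.7 CPM inside coding genes and 5.58 CPM alone. Allowing 1 mismatch in the C box moved members with both boxes to 27 from 17. The counts inside coding genes, in the non-coding context and by rRNA complement stayed within 1.5 times. The non-coding count of 16 was 14 within 100 nt, 18 within 1000 nt and 18 within 500 nt on either strand. The small group of members that were alone therefore changed in size with the distance chosen. Members at about 50 reads carry Poisson intervals too wide to order them.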

Other observations

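The 2 other SPSNORNA rows of the members' length were read for the same motifs. snr79 (88 nt, 143 reads in replicate 1 and 123 in replicate 2) held both boxes and was the only one of 194 other rows of that length range to do so, and it had no rRNA complement of 10 nt or more before a CTGA. snR88 (84 nt, 42 and 32 reads) held the D box but no C box with up to 1 mismatch, and had 13 nt before a CTGA complementary to 25S rRNA from 2301 to 2313.

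Several members had complements to neighbouring stretches of 25S rRNA. snoR39b, snoR39a and snoZ15 matched positions 834 to 846, 835 to 846 and 846 to 855. snoU18 (90 and 61 reads) matched 671 to 682 and snoR58 (381 and 336 reads) 685 to 697. snoZ8 matched 2507 to 2517 and snoZ16 2502 to 2511, and these 2 had 129 and 127 reads in replicate 1 and 95 and 110 in replicate 2.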
